A study of Mus musculus with 6 samples.

Results

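The levels of 45 genes of the lysosome and of autophagy were followed by RNA sequencing in primary hepatocytes, the main metabolic cells of the liver, from alcohol-fed mice. They were chosen by name, from a list of 45 symbols made with earlier results of these data known. Their rows were then read from the deposited gene table. All 45 were among its 25718 genes, and all 45 passed the filter on low counts that left 15957 genes to test. The members comprise 11 cathepsins, 10 other hydrolases and their activators, 4 lysosomal membrane proteins, 3 transcription factors of the MiT/TFE family, 2 autophagy receptors, 5 members of the ATG8 family, 5 genes of initiation and nucleation, and 5 genes of the conjugation systems.

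The genotypes compared were WT and S100a16KO+/-, with 3 libraries each. S100a16KO+/- mice carry 1 deleted copy of S100a16, a calcium-binding protein of the S100 family. The copy came from an allele with floxed exons 2 to 3 crossed to EIIa-Cre, a Cre active in the early embryo, so the loss is not limited to hepatocytes. Homozygous loss was lethal per the study's methods, and the mice were on a C57BL/6 background. The sample labels call the genotype "S100A16 knockdown", and the methods name heterozygous knockout mice. Both genotypes were alcohol-fed, and there was no library from a control diet. In the methods, male mice of 8 to 10 weeks had 5 days of control liquid diet, 10 days of a diet with 5% ethanol by volume and 1 ethanol gavage of 5 g/kg, 9 h before collection.

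Lysosomes are acidic organelles in which cathepsins and other hydrolases break down proteins, glycans and lipids. Autophagy delivers cytoplasm, damaged organelles and, in the liver, lipid droplets to them. A double membrane is started by the ULK1 and class III PI3-kinase complexes and expanded by conjugation of ATG8 proteins to lipid. Receptors such as p62 link the cargo to ATG8. The MiT/TFE factors TFEB, TFE3 and MITF bind E-box elements in the promoters of many lysosomal genes and raise their transcription.

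The estimated counts summed to between 67658095 and 71807834 per library, with about 4 counts standing for each sequenced fragment. The floor of detection, 3 fragments or 12 counts, corresponded to 0.167 to 0.187 CPM (TMM-scaled counts for each 1e6 counted in a library). The targeted gene checked the labels. S100a16 had 1001, 1056 and 1107 counts in WT and 433, 390 and 366 in S100a16KO+/- hepatocytes, so no library of one genotype reached the other. WT replicate 1 (21.1% of counts from mitochondrial genes) and S100a16KO+/- replicate 2 (20.1%) stood above the other 4 libraries (17.0% to 18.6%). The counts of calls without both are given beside the results. Hepatocyte markers dominated every library. The 10 listed markers summed to 49568 to 50306 FPKM (the deposited values per transcript length and sequencing depth) in WT and to 48826 to 49400 FPKM in S100a16KO+/- libraries. Levels below are in CPM scaled by edgeR's TMM factors unless they are named as FPKM. Differences are log2 fold changes of S100a16KO+/- over WT with their standard error (SE), from edgeR's quasi-likelihood test. A gene was called at an adjusted p under 0.05, with Benjamini-Hochberg adjustment over the 15957 tested genes.

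Of the 45 genes, 12 were higher and 3 were lower in S100a16KO+/- hepatocytes, and 30 were not called. The 15 called genes are 33.3% of the members, against 22.8% of all tested genes, of which 11.6% were called higher and 11.2% lower. Of the 45 members, 42 averaged at least 1 FPKM, against 9054 of the 25718 genes in the table. The share called among genes of similar level was not counted. The genes that rose were the cathepsins Ctsc, Ctsa, Ctsz, Ctsd, Ctsh and Ctsf, the hydrolases Gusb, Hexa and Gaa, the lysosomal channel Mcoln1, the ATG8 gene Map1lc3b and the nucleation gene Atg14. The genes that fell were the conjugation enzyme Atg3 and the receptors Optn and Sqstm1. The changes were small. Called rises lay between 1.15-fold and 1.45-fold, and 0 of the 45 genes reached a change of 2-fold, the limit of the study's own criterion, which 4.52% of tested genes met together with an unadjusted p under 0.05. The median log2 fold change was 0.11 over the members and 0.01 over all tested genes. In bulk RNA, fewer cells of a type and less RNA per cell cannot be told apart.

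**Figure D1:**
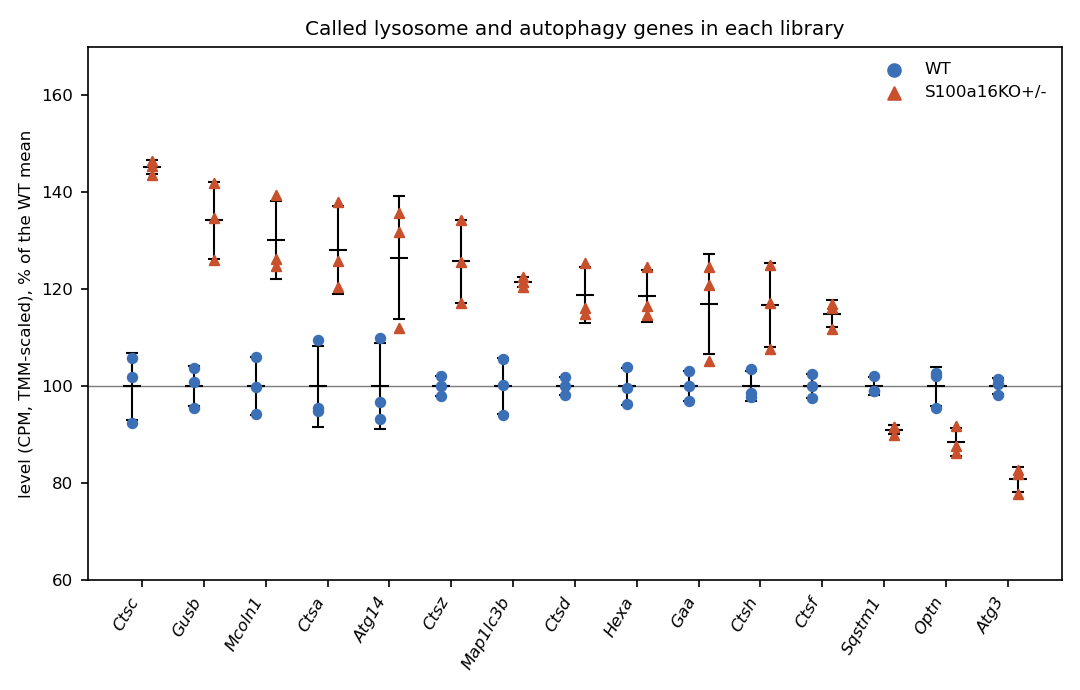
Level of each called gene in each library as a percentage of its WT mean (vertical axis, linear, CPM scaled by TMM). Circles are the 3 WT and triangles the 3 S100a16KO+/- libraries, with the mean and SD in black. The 12 genes on the left rose and the 3 on the right fell, and the genotypes did not overlap in any of the 15.

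The lysosomal and the autophagy genes were also counted separately, with no test between them. Of the 25 genes for hydrolases, activators and lysosomal membrane proteins, 10 rose (40.0%) and 0 fell by edgeR. Of all tested genes, 11.6% were called higher and 11.2% lower. The median log2 fold change of the 25 was 0.19. At an unadjusted p under 0.05, 11 of the 25 were higher and 0 lower. The share of all tested genes at that limit was not counted, so these 11 have no background to be read against. DESeq2 and limma voom each called 10 of the 25, and the shares of all genes they called are not given here. Of the 17 genes for receptors, the ATG8 family, initiation and conjugation, 2 rose and 3 fell, with a median of 0.00. That is 29.4% called, against 22.8% of all tested genes. Genotypes that did not overlap were seen for 25 of the 45 genes (55.6%), 18 higher and 7 lower, against 37.9% of all tested genes (19.2% higher and 18.6% lower). Without WT replicate 1 and S100a16KO+/- replicate 2, 12 of the 45 genes and 9 of the 25 lysosomal genes were called. The count over all genes in that fit is given in the closing section.

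**Figure D2:**
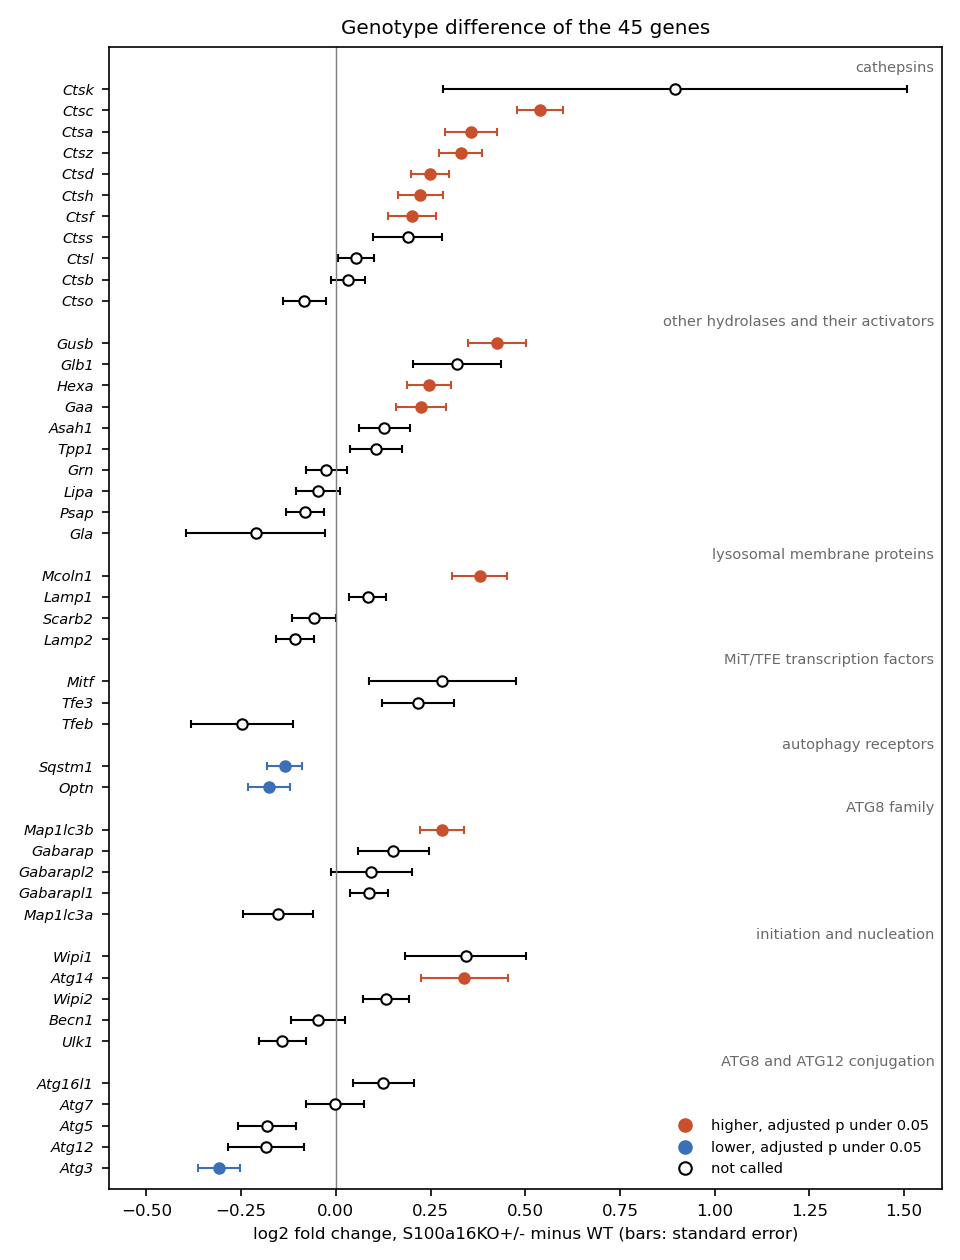
Log2 fold change of S100a16KO+/- over WT for the 45 genes, grouped by role, with bars for the standard error (n = 3 libraries per genotype). Filled red points were called higher, filled blue points lower and open points were not called. Of the 12 called rises, 9 belong to cathepsins or other hydrolases, and the widest bar belongs to Ctsk, which lay near the detection floor.

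The cathepsins are the lysosome's main proteases, and 6 of 11 rose, with a median log2 fold change of 0.22. That is 54.5% called, against 22.8% of all tested genes. Ctsc, cathepsin C or dipeptidyl peptidase 1 (ENSMUSG00000030560, chr7:88278085-88310888), had the largest called change of all 45 genes. It stood at 59.7, 57.6 and 52.2 CPM in WT and at 82.7, 82.2 and 81.2 CPM in S100a16KO+/- libraries. Its log2 fold change was 0.54 (SE 0.0605, adjusted p = 1.52e-05), a 1.45-fold higher level. The S100a16KO+/- libraries were nearly equal to each other, at 82.0 ± 0.786 CPM (SD, n = 3) against 56.5 ± 3.90 CPM in WT.

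Ctsa, the protective protein that stabilises other lysosomal enzymes, stood at 162, 141 and 140.4 CPM in WT and at 186, 204 and 178 CPM in S100a16KO+/- libraries (log2 fold change 0.36, SE 0.068, adjusted p = 0.0015). Ctsz, a carboxypeptidase, stood at 195, 188 and 192 CPM in WT and at 241, 257 and 225 CPM in S100a16KO+/- libraries (log2 fold change 0.33, SE 0.0566, adjusted p = 0.000646). In both genes S100a16KO+/- replicate 2 was highest, and the genotypes did not overlap. Ctsd, the aspartic protease cathepsin D, was at 365, 371 and 357 CPM in WT and at 423, 457 and 419 CPM in S100a16KO+/- libraries (log2 fold change 0.25, SE 0.0501, adjusted p = 0.00225). Of the 31-base words in Ctsd transcripts, 33.2% also occur in Gm49369, an annotated gene overlapping Ctsd on the same strand, so reads of this pair could be split in counting.

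Ctsh, an aminopeptidase, stood at 211, 199 and 201 CPM in WT and at 238, 254 and 219 CPM in S100a16KO+/- libraries, so that the lowest S100a16KO+/- library was only slightly above the highest WT library (log2 fold change 0.22, SE 0.0592, adjusted p = 0.0141). Its call was lost without WT replicate 2, WT replicate 3 or S100a16KO+/- replicate 1 (adjusted p = 0.0728, 0.066 and 0.0547). Ctsf rose from 27.5 ± 0.688 to 31.6 ± 0.761 CPM (SD, n = 3, log2 fold change 0.20, edgeR adjusted p = 0.0348). That call was lost when any 1 of the 6 libraries was left out, with adjusted p from 0.0575 to 0.109.

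The abundant cysteine cathepsin genes Ctsl and Ctsb were not called. Ctsl, which processes many lysosomal proteins, was at 1061, 1024 and 1094 CPM in WT and at 1134, 1112 and 1054 CPM in S100a16KO+/- libraries (log2 fold change 0.05, SE 0.0474, adjusted p = 0.48). Ctsb was at 560.2, 558 and 552 CPM in WT and at 580.0, 572 and 555 CPM in S100a16KO+/- libraries (log2 fold change 0.03, SE 0.0446, adjusted p = 0.687). In both genes the genotypes overlapped. Ctss, prominent in antigen-presenting cells, had a log2 fold change of 0.19 and Ctso one of -0.08. Ctsk, the collagen-degrading cathepsin of osteoclasts, was near the detection floor at 0.102 to 0.5 CPM, and its log2 fold change of 0.90 had an SE of 0.612.

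Among the other hydrolases and their activators, 3 of 10 rose (30% called, against 22.8% of all tested genes). Gusb, beta-glucuronidase (ENSMUSG00000025534, chr5:129989011-130003049), was at 19.2, 20.8 and 20.2 CPM in WT and at 28.5, 25.3 and 27.0 CPM in S100a16KO+/- libraries (log2 fold change 0.43, SE 0.0757, adjusted p = 0.000889). Hexa, the alpha subunit of beta-hexosaminidase, was at 47.5, 51.2 and 49.1 CPM in WT and at 57.4, 61.4 and 56.5 CPM in S100a16KO+/- libraries (log2 fold change 0.25, SE 0.0587, adjusted p = 0.00723). Gaa, the acid alpha-glucosidase that degrades lysosomal glycogen, was at 88.3, 85.6 and 83.0 CPM in WT and at 103, 107 and 90.0 CPM in S100a16KO+/- libraries. For Gaa the third S100a16KO+/- library lay just above the highest WT library (log2 fold change 0.22, SE 0.066, adjusted p = 0.0242). The Gaa call was lost without WT replicate 2, WT replicate 3, S100a16KO+/- replicate 1 or S100a16KO+/- replicate 2 (adjusted p = 0.0791, 0.105, 0.102 and 0.0787).

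Glb1, beta-galactosidase, overlapped between genotypes (log2 fold change 0.32, SE 0.117, adjusted p = 0.065), and it was called without WT replicate 2 (adjusted p = 0.0378) or without S100a16KO+/- replicate 1 (adjusted p = 0.034). The remaining 6 genes were not called. Their log2 fold changes were 0.13 for the acid ceramidase Asah1, 0.11 for the tripeptidyl peptidase Tpp1, -0.02 for the progranulin gene Grn, -0.05 for the lysosomal acid lipase Lipa, -0.08 for the saposin precursor Psap and -0.21 for the alpha-galactosidase Gla. Lipa, which hydrolyses the cholesteryl esters and triglycerides that reach lysosomes, ranged from 107 to 113 CPM in WT and from 98.6 to 111 CPM in S100a16KO+/- libraries.

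Of the 4 lysosomal membrane proteins, the calcium channel gene Mcoln1 rose and the other 3 were not called. That is 25% called, against 22.8% of all tested genes. Mcoln1 (TRPML1, ENSMUSG00000004567, chr8:3500457-3515232) was at 27.5, 24.4 and 25.9 CPM in WT and at 32.4, 36.2 and 32.8 CPM in S100a16KO+/- libraries (log2 fold change 0.38, SE 0.0726, adjusted p = 0.00153). The genotypes did not overlap for Mcoln1. Lamp1 and Lamp2 encode the abundant glycoproteins that line the lysosomal membrane. Lamp1 stood at 459.9, 453 and 459 CPM in WT and at 483, 506 and 465 CPM in S100a16KO+/- libraries (log2 fold change 0.08, SE 0.0481, adjusted p = 0.249). Lamp2 stood at 566, 590.0 and 616 CPM in WT and at 565, 527 and 554 CPM in S100a16KO+/- libraries (log2 fold change -0.11, SE 0.05, adjusted p = 0.151). The genotypes were just apart in each, Lamp1 on the higher and Lamp2 on the lower side. Scarb2, the receptor that carries glucocerebrosidase to lysosomes, had a log2 fold change of -0.06.

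None of the 3 MiT/TFE transcription factor genes was called by edgeR, DESeq2 or limma voom (0 of 3), and 1 of 3, Tfe3, had an unadjusted p under 0.05. Tfeb was at 6.55, 6.34 and 6.52 CPM in WT and at 5.99, 5.68 and 4.68 CPM in S100a16KO+/- libraries (log2 fold change -0.25, SE 0.134, adjusted p = 0.221). Tfe3 was at 11.1, 10.9 and 10.8 CPM in WT and at 11.6, 13.3 and 13.3 CPM in S100a16KO+/- libraries (log2 fold change 0.22, SE 0.0946, adjusted p = 0.123). The genotypes did not overlap in either gene, with Tfeb on the lower and Tfe3 on the higher side. Mitf was at 1.95, 2.86 and 2.63 CPM in WT and at 2.83, 2.94 and 3.26 CPM in S100a16KO+/- libraries, which overlapped (log2 fold change 0.28, SE 0.194, adjusted p = 0.352). These are transcript levels, and the activity of MiT/TFE proteins is set largely by their phosphorylation and nuclear entry, which were not measured.

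MiT/TFE factors bind E-boxes of the form TCACGTG, extended from the core CACGTG, and the promoters of the members were searched for both on both strands. A promoter here is the stretch from 250 bases before to 50 bases after a gene's start in the RefSeq table on GRCm38.p6, and 38 of the 45 members had one. The core CACGTG occurred in 13 of 38 members (34.2%), against 2187 of 27025 genes in the table (8.09%) and 1275 of 11118 tested genes with a promoter (11.5%). TCACGTG, which contains the core, occurred in 10 of 38 members (26.3%), against 4.29% of all genes and 6.77% of tested genes. It was in 5 of 11 members called higher, in 1 of 3 called lower and in 4 of 24 not called. Promoters of 0 of the 3 MiT/TFE genes held the core. The 6 called genes with TCACGTG are printed because they set the element beside the measured change. Each line runs 5′ to 3′ on the gene's strand from 150 bases before the start, to the base before it or to the end of an element that crosses it, with the element in capitals.

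Mcoln1: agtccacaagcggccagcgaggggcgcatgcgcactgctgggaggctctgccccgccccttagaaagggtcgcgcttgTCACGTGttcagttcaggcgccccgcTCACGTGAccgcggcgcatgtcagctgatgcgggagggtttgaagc
Ctsa: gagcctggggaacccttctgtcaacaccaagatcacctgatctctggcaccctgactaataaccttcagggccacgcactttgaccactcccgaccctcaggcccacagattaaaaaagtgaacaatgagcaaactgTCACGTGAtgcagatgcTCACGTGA
Atg14: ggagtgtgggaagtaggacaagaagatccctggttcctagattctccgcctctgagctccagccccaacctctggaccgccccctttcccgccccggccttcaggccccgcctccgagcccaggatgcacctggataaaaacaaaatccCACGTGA
Atg3: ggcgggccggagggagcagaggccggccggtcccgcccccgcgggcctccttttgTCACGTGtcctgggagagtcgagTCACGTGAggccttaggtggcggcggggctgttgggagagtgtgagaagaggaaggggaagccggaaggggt
Ctsd: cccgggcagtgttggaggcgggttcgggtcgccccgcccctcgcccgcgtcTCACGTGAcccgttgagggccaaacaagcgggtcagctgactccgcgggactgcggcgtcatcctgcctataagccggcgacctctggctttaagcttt
Gaa: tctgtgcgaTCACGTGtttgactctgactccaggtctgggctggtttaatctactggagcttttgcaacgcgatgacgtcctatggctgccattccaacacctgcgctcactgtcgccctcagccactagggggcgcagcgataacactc

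These lie at chr8:3500369-3500518 (plus strand) for Mcoln1, chr2:164833623-164833784 (plus) for Ctsa, chr14:47568429-47568584 (minus) for Atg14, chr16:45158679-45158828 (plus) for Atg3, chr7:142387828-142387977 (minus) for Ctsd and chr11:119267813-119267962 (plus) for Gaa. The Ctsa stretch belongs to the second of 2 starts in the table. Ctsd has another copy of the element further upstream, not shown. The element occurred among members called higher, called lower and not called, and whether it goes with the changes was not tested. The core occurred in 2 copies in Mcoln1 (log2 fold change 0.38), Ctsa (0.36), Ctsd (0.25), Atg3 (-0.31) and Gla (-0.21, not called). Lamp1, with 4 copies of the core, was not called. The promoters of Ctsc, Gusb, Ctsz, Map1lc3b and Hexa, which rose, held neither form in this window. A match describes letters only, and binding was not measured.

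The 2 autophagy receptor genes both fell slightly, and 11.2% of all tested genes were called lower. Sqstm1, which encodes p62, the receptor that is itself degraded with its ubiquitinated cargo, was at 354, 365 and 354 CPM in WT and at 328, 327 and 322 CPM in S100a16KO+/- libraries. The 3 S100a16KO+/- libraries were below every WT library (log2 fold change -0.14, SE 0.0459, adjusted p = 0.0479). That call was lost when any 1 of the 6 libraries was left out, with adjusted p from 0.0509 to 0.166. Optn, optineurin, a receptor for damaged mitochondria and bacteria, fell from 73.0 ± 2.93 to 64.6 ± 2.11 CPM (SD, n = 3, log2 fold change -0.18, edgeR adjusted p = 0.0372). The Optn call was lost without WT replicate 1, WT replicate 2, S100a16KO+/- replicate 1 or S100a16KO+/- replicate 2 (adjusted p = 0.108, 0.12, 0.107 and 0.0844).

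In the ATG8 family, whose proteins are attached to the growing autophagosome membrane, Map1lc3b was the called member. It was 1 of 5 (20%), against 22.8% of all tested genes. Map1lc3b, the LC3B gene (ENSMUSG00000031812, chr8:121590361-121598760), was at 57.3, 60.4 and 53.8 CPM in WT and at 70.1, 68.8 and 69.5 CPM in S100a16KO+/- libraries (log2 fold change 0.28, SE 0.0582, adjusted p = 0.00283). The genotypes were well apart. Of its transcripts' 31-base words, 7.77% occur in other genes, mostly the processed copy Gm6055. The other 4 members were not called, with log2 fold changes of 0.15 for Gabarap, 0.09 for Gabarapl1, 0.09 for Gabarapl2 and -0.15 for Map1lc3a. Gabarapl2 shares 15.2% of its words with other genes and its level is uncertain to that extent. Mean FPKM over the 6 libraries was 84.6 for Gabarapl1, 50.1 for Gabarap, 13.1 for Map1lc3a, 9.12 for Gabarapl2 and 7.54 for Map1lc3b. FPKM ranges over the 6 libraries were separate for Gabarapl1 against Gabarap and overlapped for Gabarapl2 against Map1lc3b. The order depends on the length used, which follows all annotated transcripts of a gene together, retained introns included. Map1lc3b has 7572 distinct 31-base words over its transcripts and Map1lc3a has 1178. In CPM, which is not per length, Map1lc3b was not the lowest. WT means were 184 for Gabarapl1, 98.2 for Gabarap, 57.2 for Map1lc3b, 22.9 for Gabarapl2 and 18.2 for Map1lc3a.

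Of the 5 initiation and nucleation genes, 1 was called (20%, against 22.8% of all tested genes). This was Atg14, the subunit that directs the class III PI3-kinase complex to autophagosome formation sites. It was at 7.94, 9.36 and 8.24 CPM in WT and at 9.54, 11.2 and 11.6 CPM in S100a16KO+/- libraries (log2 fold change 0.34, SE 0.114, adjusted p = 0.0467). The first S100a16KO+/- library was barely above the second WT library. The Atg14 call was lost without WT replicate 1, WT replicate 3, S100a16KO+/- replicate 2 or S100a16KO+/- replicate 3 (adjusted p = 0.143, 0.125, 0.12 and 0.161). Log2 fold changes were -0.14 for the kinase gene Ulk1 (adjusted p = 0.121), -0.05 for the PI3-kinase regulator Becn1, and 0.34 (SE 0.16) and 0.13 for the phosphoinositide binders Wipi1 and Wipi2.

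Among the 5 conjugation genes, 1 was called (20%, against 22.8% of all tested genes). This was Atg3, which had the largest fall of all 45 genes. Atg3 (ENSMUSG00000022663, chr16:45158785-45188538) encodes the enzyme that transfers ATG8 proteins to phosphatidylethanolamine. It was at 51.0, 49.8 and 51.5 CPM in WT and at 41.5, 42.0 and 39.5 CPM in S100a16KO+/- libraries. The genotypes were far apart relative to the spread within them (log2 fold change -0.31, SE 0.0556, adjusted p = 0.000982). Its partners in the same reactions were not called. Log2 fold changes were -0.18 for Atg5 (adjusted p = 0.105), 0.13 for Atg16l1, -0.18 for the ubiquitin-like Atg12 (adjusted p = 0.221) and 0.00 for Atg7, the shared activating enzyme, which had means of 22.3 CPM in each genotype.

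The levels of the 45 transcripts spanned a wide range in FPKM. The length in FPKM follows all annotated transcripts of a gene together, retained introns included. The order of genes given here therefore holds for that length only, and their order in transcript number was not determined. In CPM, which is not per length, the WT mean was 1059 for Ctsl and 192 for Ctsz, which overlapped in FPKM. Of the 45, 5 genes had a mean of at least 100 FPKM. Lamp1 (145.8 to 165 FPKM over the 6 libraries), Psap (140.2 to 163 FPKM), Ctsd (132 to 166 FPKM), Ctsl (139 to 159.6 FPKM) and Ctsz (115 to 153 FPKM) overlapped in their ranges. Sqstm1 came next at 82.7 to 100.4 FPKM and did not reach Ctsz. At the lower end were Tfe3 (1.01 to 1.34 FPKM), Tfeb (0.756 to 1.04 FPKM), Mitf (0.264 to 0.488 FPKM) and Ctsk (0.0567 to 0.303 FPKM). In the order of mean FPKM, 37 of the 44 neighbouring pairs had overlapping ranges.

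**Figure D3:**
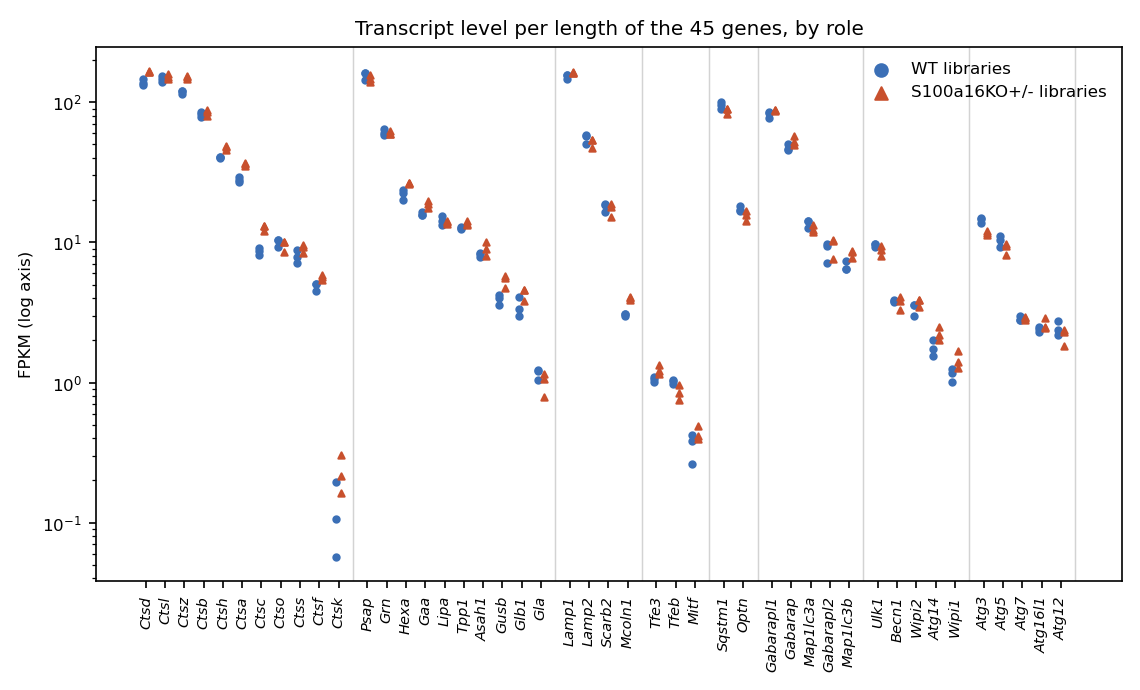
FPKM of each of the 45 genes in each library on a log axis, grouped by role and ordered by mean FPKM within a role. The order depends on the length used in FPKM. Circles are WT and triangles S100a16KO+/- libraries. Lamp1, Psap, Ctsd, Ctsl and Ctsz lie above 100 FPKM, and the 3 MiT/TFE genes lie near or below 1 FPKM.

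A further 155 genes of the same pathways were listed by role, and 154 were in the table and tested. Of these, 29 were higher and 14 lower (27.9%), with a median log2 fold change of 0.04. Of all tested genes 22.8% were called, 11.6% higher and 11.2% lower. The count of 43 calls fell to 28 without WT replicate 2, to 27 without WT replicate 3 and to 28 without S100a16KO+/- replicate 3. Of 32 other lysosomal hydrolases and cofactors, 9 rose and 2 fell (34.4%). Lgmn, the asparaginyl endopeptidase legumain that processes cathepsins, rose most (log2 fold change 0.50), followed by the iduronidase Idua (0.45). Prcp, a carboxypeptidase, rose by 0.36 on the log2 scale and the phospholipase Pla2g15 had a log2 fold change of -0.35. Of 20 other lysosomal membrane proteins, 5 rose and 1 fell (30%). Those that rose included Cln3 (log2 fold change 0.37), the ion channel Tmem175 (0.36) and the acetyltransferase Hgsnat (0.31). The cystine exporter Ctns fell (-0.39).

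The V-ATPase pumps protons into the lysosome, and of 17 subunit genes 3 rose and 1 fell. These are 23.5%, near the 22.8% called of all tested genes. Atp6v0b (log2 fold change 0.26) and Atp6v0d1 (0.22) rose, and Atp6v1c1 fell (-0.30). Atp6v0e2 had a log2 fold change of 3.09, from 0.117 to 0.256 CPM in WT, near the floor of detection, to 1.07 to 2.15 CPM. Of 9 genes for the sorting of lysosomal enzymes, 1 was called (11.1%, below the share of all tested genes). This was Nagpa, which uncovers the mannose 6-phosphate tag and rose (0.28).

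Some other autophagy genes changed more than any called member. Of 29 other core autophagy genes, 5 rose and 4 fell (31%, against 22.8% of all tested genes). Atg13, the scaffold subunit of the ULK1 complex, was at 19.2, 21.8 and 21 CPM in WT and at 43.9, 41.7 and 43.2 CPM in S100a16KO+/- libraries (log2 fold change 1.05, SE 0.0685, adjusted p = 5.41e-08). The lipid transfer gene Atg2a (0.63) and the scramblase genes Tmem41b (0.43) and Vmp1 (0.40) rose as well. Of 18 other receptors, 4 rose and 3 fell (38.9%, against the same 22.8%). Retreg1, the receptor FAM134B for autophagy of the endoplasmic reticulum, went from 44.6 to 50.1 CPM in WT to 93.9 to 96.7 CPM (log2 fold change 1.03). Its relative Retreg3 (-0.87) and the glycogen receptor Stbd1 (-1.02) fell. Calcoco1 rose (0.36).

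Of 29 genes for nutrient sensing upstream of TFEB, 2 rose and 3 fell (17.2%, below the 22.8% of all tested genes). Ddit4, the stress-induced inhibitor of mTORC1, fell from 17.6 to 19.0 CPM in WT to 8.27 to 8.72 CPM (log2 fold change -1.09). Fnip2 (-0.33), a partner of folliculin, fell too. Sesn1, a leucine sensor, rose by 0.52 on the log2 scale, and so did Tsc2 by 0.26.

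**Figure D4:**
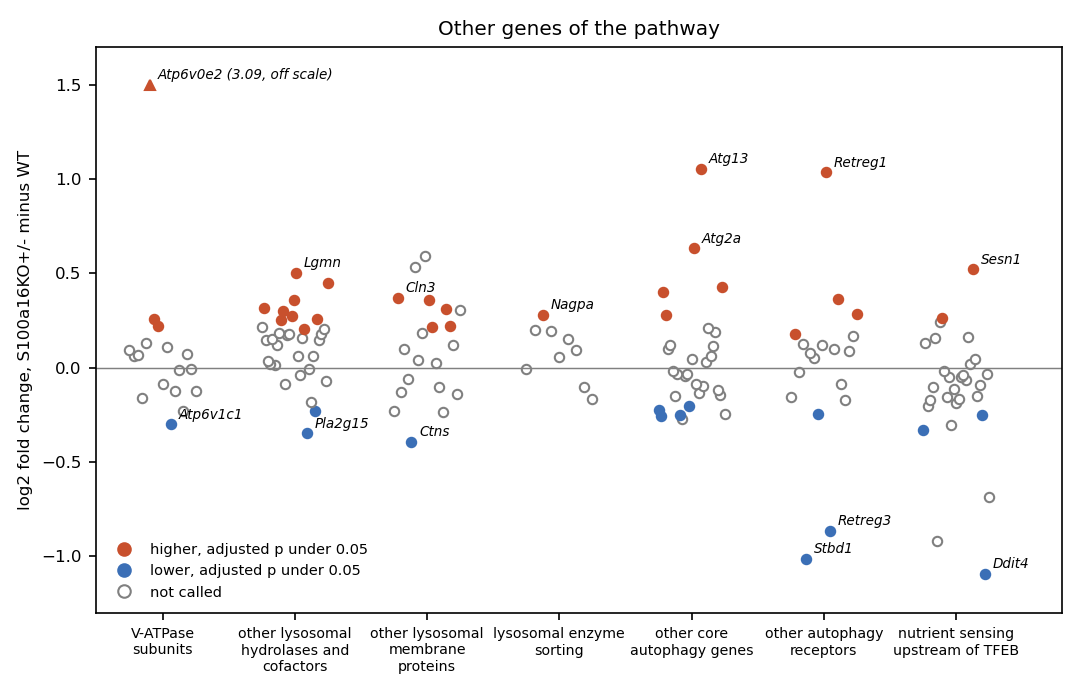
Log2 fold change of S100a16KO+/- over WT for the 154 other genes of the pathway, grouped by role (horizontal positions within a role carry no meaning). Red points were called higher, blue lower and open grey points were not called. Atp6v0e2 at 3.09 is drawn at the upper edge, and Atg13, Retreg1, Stbd1 and Ddit4 lie near or beyond 1 in size.

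Markers of other liver cells moved with genotype, and cathepsins are also expressed in macrophages. The 11 cathepsins summed to 562 to 598 FPKM in WT and to 660.4 to 687 FPKM in S100a16KO+/- libraries. The 12 macrophage markers summed to 84.8 to 99.3 FPKM in WT and to 101 to 113 FPKM in S100a16KO+/- libraries, so the genotypes were apart in both. Of the 12, Marco (log2 fold change 0.74), C1qb (0.43), Lyz2 (0.33) and Mpeg1 (0.31) rose and 0 fell. The other 8 were not called, with log2 fold changes of 0.27 for C1qc, 0.26 for C1qa, 0.24 for Cd5l, 0.06 for Timd4, 0.04 for Clec4f, 0.00 for Csf1r, 0.00 for Vsig4 and -0.10 for Adgre1. The median over the 12 was 0.25, with 11 of 12 positive, and none of the 12 was at 0 in either genotype. Markers of sinusoidal endothelium summed to 34.0 to 37.2 FPKM in WT and to 49.0 to 51.7 FPKM in S100a16KO+/- libraries, with 5 of 6 higher and Lyve1 lower. Those of stellate cells summed to 7.29 to 7.44 FPKM in WT and to 12.7 to 13.2 FPKM, with 4 of 8 higher. Erythroid markers summed to 261 to 288 FPKM in WT and to 25.2 to 26.2 FPKM, with 5 of 5 lower. The 10 hepatocyte markers summed to 49568 to 50306 FPKM in WT and to 48826 to 49400 FPKM in S100a16KO+/- libraries, without overlap. Most of this sum was Alb, with means of 33701 FPKM in WT and 32703 FPKM in S100a16KO+/- libraries. Alb overlapped between genotypes in CPM and was not called (log2 fold change -0.05). Of the 10 markers, 4 had a positive and 6 a negative log2 fold change. Of these, Tat was called higher (0.17), Cyp3a11 (-0.37), Ttr (-0.33) and Tf (-0.14) lower, and 6 were not called. The lists for other leukocytes (3.71 to 5.45 against 5.18 to 6.67 FPKM) and for cholangiocytes (1.68 to 2.40 against 2.03 to 2.50 FPKM) overlapped between genotypes. The part of these cells in the rise of the lysosomal genes was not tested.

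**Figure D5:**
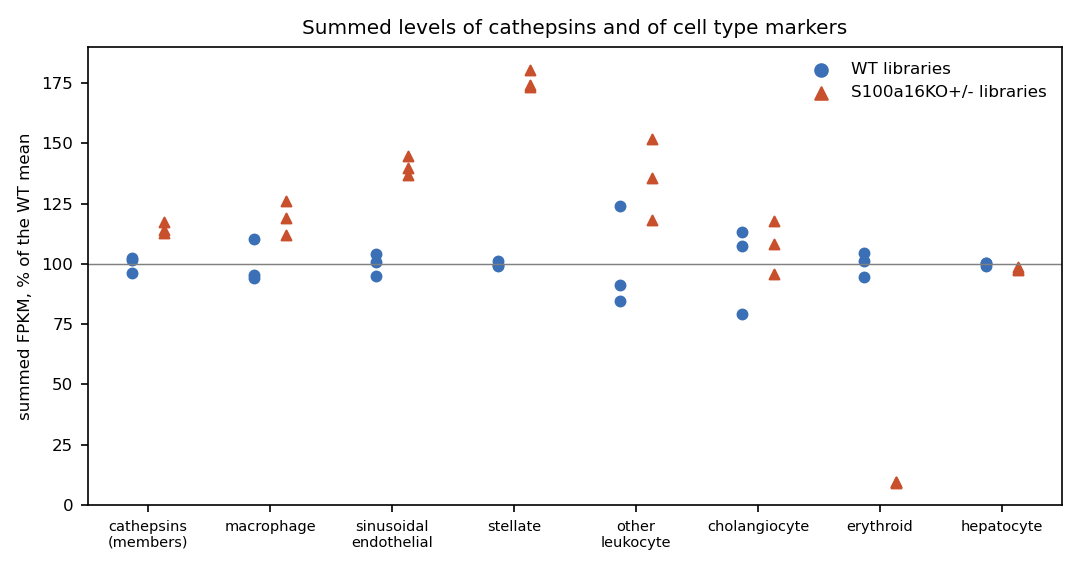
Summed FPKM of the 11 cathepsins and of 7 marker lists in each library, as a percentage of the WT mean of the same sum (linear axis from 0). Circles are WT and triangles S100a16KO+/- libraries. Cathepsins, macrophage, endothelial and stellate markers are higher in all 3 S100a16KO+/- libraries. Erythroid markers are far lower in all 3. The hepatocyte sum, most of which is Alb, is slightly lower.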

How the data were processed

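Poly(A)-selected, strand-specific libraries with molecular identifiers were sequenced in pairs per the labels. The submitters' processing notes name cutadapt 1.9, HISAT2 2.0.4, UMI-tools, StringTie 1.3.4d, DESeq2 and edgeR, and build mm10. Whether the counting used strand is not given in the sources used here. The authors deposited 1 table with an estimated count, not scaled for library size, for each gene and library. They also deposited an FPKM value, scaled for length and depth and proportional to the estimated count within a library (at least 99.8% of 9244 genes within 1% of the library's ratio).

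The estimated counts were rounded and tested with edgeR 4.0.16 in R 4.3.3 (TMM, filterByExpr, robust quasi-likelihood fit, genotype only, two-sided). DESeq2 1.42.0 and limma 3.58.1 were alternatives, with those in the closing section. The fits were tested on simulated data. The study's methods name DESeq2 with 2 limits, an unadjusted p under 0.05 and at least a 2-fold change, whereas the calls here rest on edgeR's adjusted p. Libraries were taken as replicates as labelled. The labels do not say that they came from separate animals, so p-values measure the spread between these libraries, which may be technical. The floor of detection covers counting error only.

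The members, the gene lists and the markers were chosen with earlier results of these data known. Called members were all named, with values per library for the 12 of largest change (fewer than 12 reached a log2 fold change of 0.5) and for Tfeb, Tfe3, Mitf, Sqstm1, Lamp1, Lamp2, Map1lc3b, Ctsb, Ctsd and Ctsl. Of the other pathway lists, up to 4 called genes of largest change each were named. Positions are those of the table (mm10), and 41 of the 45 members had the same start and end in GENCODE M21, from which shared 31-base words were counted. Promoters came from RefSeq on GRCm38.p6, and 38 of 45 members matched by symbol.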

Additional observations from a re-analysis of the deposited data

How the results depend on the processing

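Of the 15 called members, 6 (Ctsa, Ctsc, Ctsd, Ctsz, Mcoln1 and Atg3) were called in all 18 alternatives that kept the adjusted p. Ctsf and Sqstm1 lost the call in 12, Atg14 in 10, Optn in 9, Gaa in 5, Ctsh in 4 and Hexa, Gusb and Map1lc3b in 1 each, and Glb1 gained one in 5. The 45 members kept 15 calls with median-ratio size factors, TMM without the 20 most abundant genes, DESeq2 and limma voom, each the same 15 genes. Leaving out 1 library gave 10 to 12 member calls, 7 to 9 among lysosomal members, 4 to 5 among cathepsins, 27 to 36 among other pathway genes and 2734 to 3302 of all genes. The replicate numbers did not pair the libraries (correlations of same-numbered libraries -0.05, -0.02 and 0.07 over 11938 genes), and a replicate block gave 3082 calls over all genes (3643 without), 12 members, 11 of them shared with the 15, and 33 other pathway genes. With limma on log2(FPKM + 1) at a mean FPKM of at least 1, calls were 2228 of all genes, 11 members and 25 other pathway genes, and with log2(FPKM + 0.1) 2208, 11 and 25. On log2(FPKM + 1) over every gene above 0 they were 1370, 6 members, 5 lysosomal members, 4 cathepsins and 11 others. The study's criterion gave 721 genes, 5 other pathway genes and 0 members, lysosomal members or cathepsins. Without the 2 libraries of highest mitochondrial share, chosen after seeing the data, 3412 genes, 12 members and 40 other pathway genes were called. The cause of these shifts was not tested. Members near 0 changed sign. Leaving out single libraries gave log2 fold changes from -0.0453 to 0.0442 for Atg7, -0.1049 to 0.0003 for Becn1, -0.0604 to 0.0167 for Grn and -0.0055 to 0.1922 for Gabarapl2. Atg7 had 0.0079 at a mean of at least 1 CPM, 0.0018 with counts divided by 4, 0.0060 on log2(FPKM + 0.1) and 0.0045 on both log2(FPKM + 1) fits. Becn1 had 0.0285 without the 2 libraries. In the main fit 0 of the 45 members changed 2-fold. Ctsk, near the detection floor, had log2 fold changes from 0.133 to 1.3878 over its 14 alternatives. With 3 libraries per genotype, changes near those of Ctsf and Sqstm1 sat at the edge of what was called.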

Other observations

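The members varied little between libraries of the same genotype. The median coefficient of variation was 4.01% in WT and 6.16% in S100a16KO+/- libraries over the 45 genes, and 7.63% and 8.34% over the 11938 tested genes that averaged 1 CPM or more. Together the 45 genes took 0.582% to 0.625% of counts in WT and 0.615% to 0.658% in S100a16KO+/- libraries. Of the 45 genes, 16 are overlapped by an annotated gene on the opposite strand, among them Ctsa by Pltp and Ctsz by Nelfcd, and 9 by one on the same strand. Apart from Ctsd, Gabarapl2, Map1lc3b, Ctsl (7.68%) and Glb1 (5.13%), no member shared more than 3.12% of its 31-base words with other genes.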
